A study of Drosophila melanogaster with 9 samples.

Results

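The odorant-binding protein genes of Drosophila melanogaster were followed in dissected hearts of adult w1118 females, 10 days by the sample titles, on 3 diets. Members were all genes whose symbol starts with Obp followed by a digit, which gave 51 of the 16700 rows of the deposited table. Of these, 35 had reads in at least 1 library and 15 passed the filter on low values (mean of at least 0.5 RPKM, read counts divided by gene length and library size), among 8365 rows that passed in all. Females on high sugar diet (HSD) spent 10 days on normal food with 30% sucrose. Females on high fat diet (HFD) spent 7 days on normal food and then 3 days on normal food with 30% coconut oil. Females on normal diet (ND), a yeast and cornmeal food, stayed on it for 10 days. All were w1118, mated before the males were removed, with no transgene, and each diet had 3 libraries named A, B and C, each a pool of hearts (15 per library in the labels, where the methods give a larger number). The methods describe a tube of each diet per date and samples collected on different days, without tying a letter to a day. The main fit has no term for day, so the p-values measure the spread between these pools, with any difference between days in it.

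Odorant-binding proteins are small secreted proteins that fold around a hydrophobic pocket and hold odorants, pheromones and other lipid-like molecules in solution. In the antennae and taste organs of flies they are released by support cells into the fluid around the sensory neurons. The family is large, many of its genes lie in tandem clusters, and several members are made outside the sense organs, for instance in the male reproductive tract, where Obp8a, Obp22a, Obp51a and some genes of the Obp56 cluster encode seminal fluid proteins.

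The libraries held 59941762 to 90069218 reads on genes, and RPKM was rescaled by factors of 0.938 to 1.084. Cardiac markers such as Hand, Mhc and Mlc2 were present in every library: the 10 genes of that list summed to 1423 to 2003 RPKM on HSD, 1456 to 2110 RPKM on HFD and 1526 to 1881 RPKM on ND, and none was called in any comparison. Fat body markers were also abundant, at 37240.3 to 45109.8 RPKM on HSD, 22212 to 25713 RPKM on HFD and 63663 to 91338 RPKM on ND, most of it from the yolk protein genes Yp1, Yp2 and Yp3. The oenocyte list, led by Cyp4g1, summed to 60174 to 72193 RPKM on HSD, 51446 to 63827 RPKM on HFD and 41504 to 57332 RPKM on ND. Of the 8 markers of chemosensory neurons and their support cells, 2 were tested (lush and sv), and the list summed to 2.97 to 3.69 RPKM on HSD, 1.90 to 2.67 RPKM on HFD and 3.56 to 3.83 RPKM on ND. In that list the odorant co-receptor Orco was at no more than 0.0353 RPKM and the ionotropic co-receptor Ir8a at no more than 0.0111 RPKM in any library, whereas the ionotropic co-receptor Ir25a was at 0.353 to 0.516 RPKM in every library. ND library C stood apart in eggshell genes. The eggshell list summed to 2.29 to 47.7 RPKM on HSD, 2.45 to 10.2 RPKM on HFD and 43.3, 121 and 1223 RPKM in ND A, B and C.

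The Obp genes spanned more than 5 orders of magnitude in the heart. Obp99c, which encodes a small secreted protein of the family, was by far the highest, with a mean of 1114 RPKM over the 9 libraries and rank 90 among all rows. It alone made up 61.4 to 67.9% of the summed RPKM of the family. Obp99a (191 RPKM), Obp18a (186 RPKM) and Obp57c (101 RPKM) were the other members with a mean of at least 100 RPKM. A further 4 members (Obp83cd, Obp83ef, Obp57a and Obp99b) had a mean of at least 10 RPKM. These means are levels per gene length, so members can be ranked on them. The order of Obp99a and Obp18a differed by diet, so no single order holds over the 9 libraries. Obp18a was the higher in every HSD library and in HFD libraries A and C. Obp99a was the higher in HFD library B and every ND library.

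**Figure D1:**
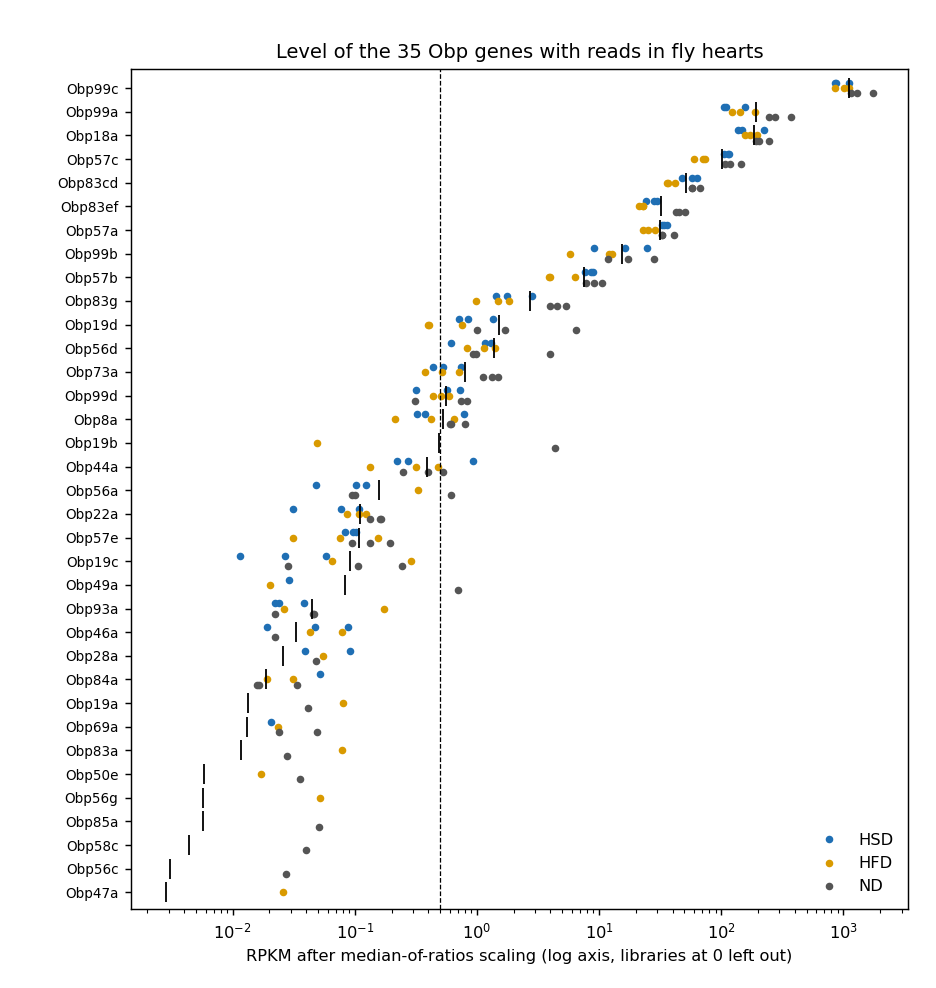
Level of the 35 Obp genes with reads, in RPKM after scaling on a log axis, 1 point per library coloured by diet (HSD, HFD, ND) with libraries at 0 left out. Black ticks are means over the 9 libraries and the dashed line is the filter of 0.5 RPKM: 15 genes passed it, from Obp99c at 1114 RPKM to Obp8a at 0.532 RPKM, and the 9 libraries of a gene mostly lay close together beside the span between genes.

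The summed level of the family was lower on both rich diets. It was 1748, 1380.3 and 1381 RPKM in HSD A, B and C, 1495, 1636 and 1353 RPKM in HFD A, B and C, and 2669.6, 1873 and 2126 RPKM in ND A, B and C. No HSD or HFD library reached the lowest ND library. Without Obp99c, the sum was 507 to 628 RPKM on HSD, 479.7 to 526 RPKM on HFD and 713 to 933 RPKM on ND, so the lower level did not rest on that gene alone. Much of the remaining difference lay in Obp99a, at 106 to 158 RPKM on HSD, 123 to 189 RPKM on HFD and 247 to 371 RPKM on ND. In pooled tissue, fewer cells of a type and less RNA per cell cannot be told apart.

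On HSD, 4 of the 15 members tested were called lower than on ND (Obp99a, Obp83ef, Obp83g and Obp73a) and 0 were called higher, by limma or by limma-voom on reads rebuilt from the RPKM. A call required a Benjamini-Hochberg adjusted p under 0.05 over all 8365 rows in limma, a linear model that shares its estimate of spread across genes, and a fold change of at least 1.5 (0.585 on the log2 scale, computed on log2(RPKM + 0.5)). Over all rows tested, 2.56% were called lower on HSD and 0.741% higher. All 15 members had a log2 fold change below 0, where 49.5% of all rows did. Among them, Obp8a averaged 0.492 RPKM on HSD, 0.432 RPKM on HFD and 0.672 RPKM on ND. Being under 0.5 RPKM on both rich diets, Obp8a passed the filter through ND, which favoured a value below 0. The median was -0.37 over the members and 0.00 over all rows. The libraries of both diets did not overlap for 5 members, each lower on HSD, where 14.3% of all rows were lower without overlap.

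On HFD, 6 of the 15 members tested were called lower than on ND (Obp57c, Obp83cd, Obp83ef, Obp57b, Obp83g and Obp73a) and 0 higher, by limma or limma-voom. Over all rows tested, 1.45% were called lower on HFD and 0.466% higher. Again all 15 members had a log2 fold change below 0, where 46.0% of all rows did, and the median was -0.81 over the members and 0.02 over all rows. Obp8a, which passed the filter through ND, was among the 15. The libraries did not overlap for 10 members, each lower on HFD, where 12.0% of all rows were lower without overlap. Both comparisons use the same 3 ND libraries, so their counts are not independent of each other.

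**Figure D2:**
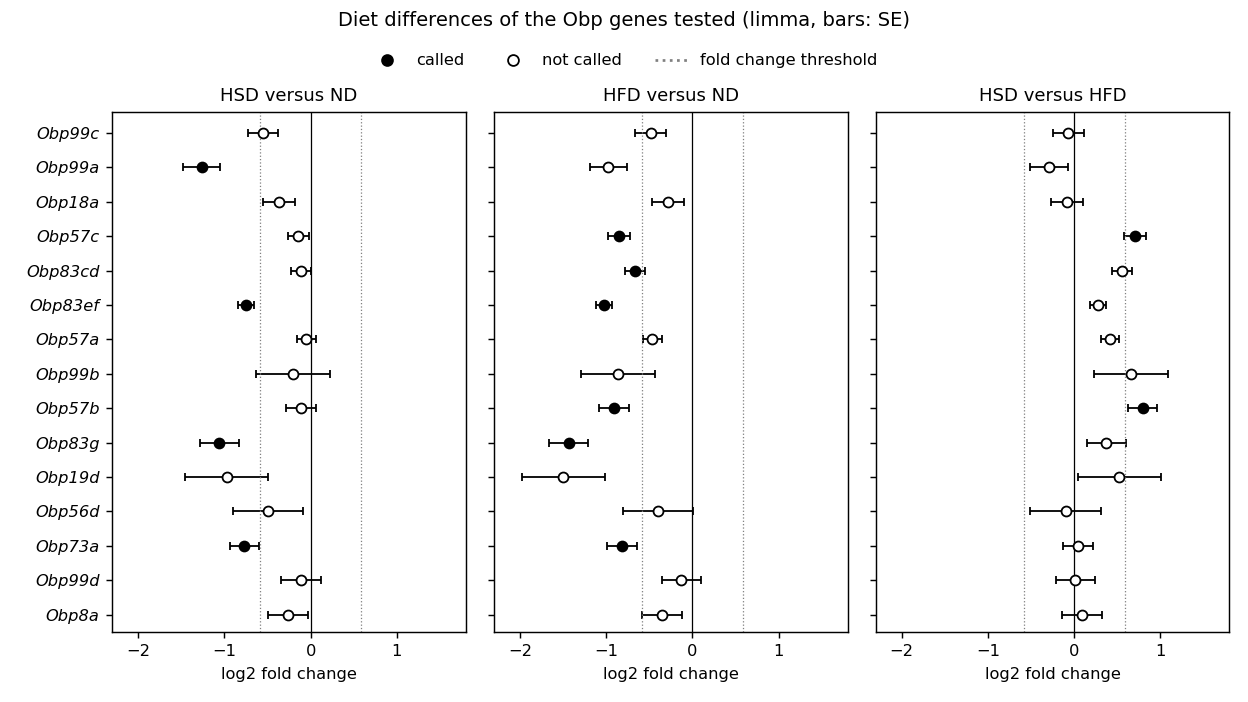
Log2 fold change of the 15 Obp genes tested in the 3 comparisons (HSD versus ND, HFD versus ND, HSD versus HFD), ordered by mean level, with the SE from limma as bars. Filled points are called (4, 6 and 2 genes), dotted lines mark the fold change threshold of 0.585, and every point of the HSD versus ND and HFD versus ND panels lies below 0.

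The Obp99 genes form a cluster on chromosome 3R with gaps of at most 30000 bases between neighbours, with Obp99a, Obp99c, Obp99d and Obp99b in that order from 29671657 to 29716896 (BDGP6, which is not the build that was aligned to). Obp99c (FBgn0039682) had 1121, 873 and 854 RPKM in HSD A, B and C, 1015, 1109.6 and 854 RPKM in HFD A, B and C, and 1737, 1160.0 and 1306 RPKM in ND A, B and C. Every HSD and HFD library was below every ND library, yet the gene was not called. Its log2 fold change was -0.55 ± 0.18 (SE) on HSD (limma, Benjamini-Hochberg adjusted p = 0.107) and -0.48 ± 0.18 on HFD (limma, adjusted p = 0.19). Quantile normalization moved the HSD value to -0.64 with an adjusted p of 0.0253 in limma. The exons of Obp99c share 3.44% of their bases with Gycalpha99B on the other strand, and whether the counting used strand is not stated.

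Obp99a (FBgn0039678), another abundant secreted family member, had the largest difference on HSD among the members tested. It had 158, 106 and 109 RPKM in HSD A, B and C, 123, 189 and 143 RPKM in HFD A, B and C, and 371, 247 and 277 RPKM in ND A, B and C. All libraries on both rich diets were lower than all on ND, and HSD and HFD overlapped. In limma, the log2 fold change was -1.26 ± 0.22 on HSD (limma, Benjamini-Hochberg adjusted p = 0.0143). On HFD it was -0.97 ± 0.22, with an adjusted p of 0.0505 in limma, just outside the threshold. The HSD call was lost without HSD library B (limma adjusted p = 0.0697), HSD library C (0.0509), ND library A (0.0527) or ND library C (0.0549), while the fold change stayed between -1.45 and -1.10 over the 9 fits that each leave out 1 library.

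The neighbours Obp99b and Obp99d were lower in level and were not called in any comparison. Obp99b (FBgn0039685) had 9.13, 16.4 and 24.9 RPKM in HSD A, B and C, 5.79, 12.1 and 12.7 RPKM in HFD A, B and C, and 28.3, 11.9 and 17.3 RPKM in ND A, B and C. The libraries of the 3 diets overlapped. The fitted log2 difference was -0.21 ± 0.43 on HSD and -0.87 ± 0.43 on HFD (limma, Benjamini-Hochberg adjusted p = 0.86 and 0.328). Values of Obp99b come from a stretch of the table in which labels had slipped by 1 row, and with the labels as listed the HSD value would be 0.18. Obp99d, at 0.558 RPKM on average, had overlapping libraries in all 3 comparisons.

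A run of 3 Obp genes on chromosome 3R, Obp83cd, Obp83ef and Obp83g (6108134 to 6112302 in BDGP6), was called lower on HFD in all 3 genes, and on HSD in Obp83ef and Obp83g. Obp83cd and Obp83ef each encode a protein with a pair of odorant-binding domains. Obp83ef (FBgn0046876) had 24.3, 29.8 and 28.2 RPKM in HSD A, B and C, 21.4, 22.9 and 23.1 RPKM in HFD A, B and C, and 51.0, 45.0 and 43.0 RPKM in ND A, B and C. The 3 diets fell into separate ranges, lowest on HFD and highest on ND. The log2 fold change was -0.75 ± 0.09 on HSD (limma, Benjamini-Hochberg adjusted p = 0.0041) and -1.03 ± 0.09 on HFD (limma, adjusted p = 0.00182). Both calls held in all 9 fits that leave out 1 library. HSD was higher than HFD by 0.28 ± 0.09, which was not called (limma, adjusted p = 0.0987).

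Obp83cd (FBgn0046878), the adjacent gene on the other strand, fell on HFD. It had 47.6, 57.6 and 63.7 RPKM in HSD A, B and C, 41.9, 36.6 and 35.8 RPKM in HFD A, B and C, and 66.7, 57.3 and 57.7 RPKM in ND A, B and C. Every HFD library was below every HSD and ND library, and HSD and ND overlapped. In limma, the log2 fold change was -0.66 ± 0.12 on HFD (limma, Benjamini-Hochberg adjusted p = 0.0242) and -0.11 ± 0.12 on HSD (limma, adjusted p = 0.679). HSD against HFD gave 0.55 ± 0.12 with an adjusted p of 0.0212 in limma, under the fold change threshold. The exons of Obp83cd and Obp83ef overlap over 10.2% of their bases, so reads there could count for either gene if strand was not used. The HFD call of Obp83cd was lost without HFD library B (limma adjusted p = 0.0926), HFD library C (0.0517), ND library A (0.0778) or ND library C (0.0849).

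Obp83g (FBgn0046875), the third gene of the run, had the largest fold among the members called. It had 1.44, 1.78 and 2.85 RPKM in HSD A, B and C, 0.975, 1.49 and 1.83 RPKM in HFD A, B and C, and 5.38, 3.99 and 4.57 RPKM in ND A, B and C. Both rich diets lay below ND without overlap. The fitted log2 difference was -1.06 ± 0.23 on HSD (limma, Benjamini-Hochberg adjusted p = 0.0292) and -1.43 ± 0.23 on HFD (limma, adjusted p = 0.0164). Its label had also slipped by 1 row, and with the labels as listed neither comparison was called (limma adjusted p = 0.28 on HSD and 0.266 on HFD). Multiplied by exon length and library total, the realigned values gave whole reads (within 0.05) at the length of Obp83g in all 9 libraries and the values listed under its name did not. Leaving out ND library A ended both calls (limma adjusted p = 0.112 on HSD and 0.0581 on HFD), as did ND library C (0.0993 on HSD and 0.0746 on HFD). The HSD call was also lost without HSD library A (0.0631) or HSD library B (0.114), and the HFD call without HFD library B (0.0608).

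**Figure D3:**
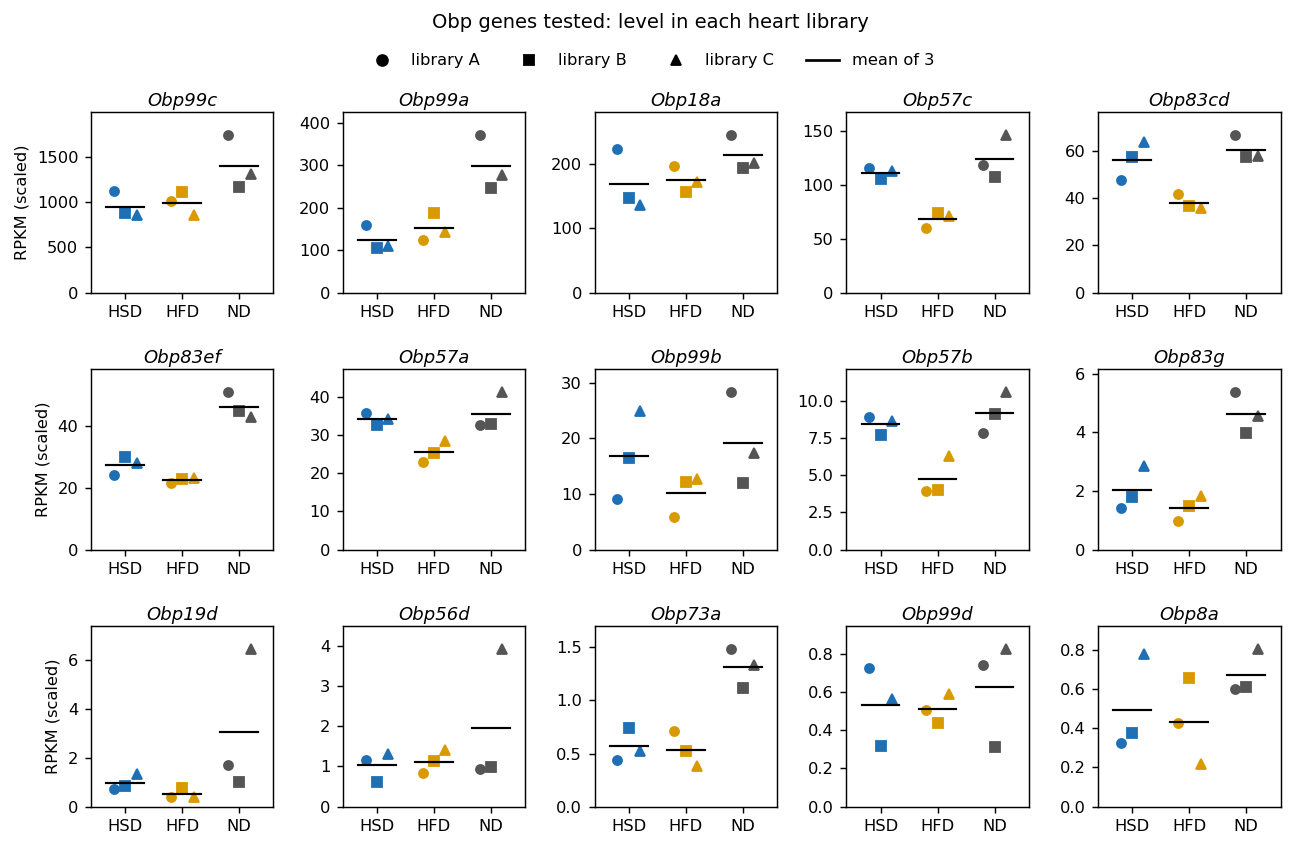
RPKM after scaling of the 15 Obp genes tested in each library (circle A, square B, triangle C), with HSD, HFD and ND from left to right, lines at the mean of 3 libraries and axes from 0. Obp83ef, Obp83g, Obp73a, Obp99a and Obp99c sit lower on both rich diets than on ND, Obp57c, Obp57b, Obp57a and Obp83cd sit lower on HFD than on the other diets, and ND library C stands high for Obp19d (6.43 RPKM) and Obp56d (3.93 RPKM).

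The other run of 3, Obp57c, Obp57b and Obp57a on chromosome 2R (20503584 to 20505758 in BDGP6), held 2 genes called lower on HFD than on ND (Obp57c and Obp57b) and none called on HSD. The genes lie 49 and 14 bases apart on the same strand. Obp57c (FBgn0034509) had 115, 105 and 113 RPKM in HSD A, B and C, 59.6, 74.2 and 70.9 RPKM in HFD A, B and C, and 118, 107 and 146 RPKM in ND A, B and C. HFD was lowest without overlap, and the HSD and ND ranges overlapped. The log2 fold change was -0.85 ± 0.12 on HFD against ND (limma, Benjamini-Hochberg adjusted p = 0.0122) and 0.71 ± 0.12 on HSD against HFD (limma, adjusted p = 0.0101). On HSD against ND it was -0.14 ± 0.12 (limma, adjusted p = 0.598). Both calls of Obp57c held in all 9 fits that leave out 1 library.

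Obp57b (FBgn0043534) followed the same order of diets. It had 8.95, 7.72 and 8.65 RPKM in HSD A, B and C, 3.92, 4.00 and 6.31 RPKM in HFD A, B and C, and 7.86, 9.14 and 10.6 RPKM in ND A, B and C. The HFD libraries lay below all others. In limma, the log2 fold change was -0.91 ± 0.17 on HFD against ND (limma, Benjamini-Hochberg adjusted p = 0.0298), 0.80 ± 0.17 on HSD against HFD (limma, adjusted p = 0.0213) and -0.11 ± 0.17 on HSD against ND (limma, adjusted p = 0.796). The HFD call was lost without HSD library B (limma adjusted p = 0.051), HFD library A (0.0866), HFD library B (0.108), ND library B (0.0715) or ND library C (0.128). The HSD against HFD call was lost without any one of the HSD libraries A, B and C or the HFD libraries A and B, at limma adjusted p of 0.0539, 0.0561, 0.073, 0.0735 and 0.074 in that order.

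Obp57a (FBgn0043535) had the smallest differences of the run. It had 35.7, 32.7 and 34.1 RPKM in HSD A, B and C, 22.9, 25.3 and 28.5 RPKM in HFD A, B and C, and 32.6, 32.9 and 41.2 RPKM in ND A, B and C. HFD was again lowest without overlap, but no comparison was called: -0.47 ± 0.11 on HFD against ND (limma, Benjamini-Hochberg adjusted p = 0.0594), and 0.42 ± 0.11 on HSD against HFD, where the adjusted p of 0.0471 in limma passed and the fold did not. The next pair of genes on the same arm is Obp57e and Obp57d, known in other Drosophila species for a part in the taste of host plant acids. Obp57e averaged 0.107 RPKM. Obp57d, whose exons are shared with another gene, had no read counted in any library.

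For HSD against HFD as a whole, 2 of 15 members were called higher on HSD (Obp57c and Obp57b) and 0 were called lower, by limma or limma-voom, and none of the members below 0 had an unadjusted p under 0.05 in limma. Over all rows, 1.75% were called higher on HSD and 2.61% lower. The median log2 fold change was 0.28 over the members and -0.01 over all rows, and 4 of 15 members were below 0, where 51.6% of all rows were. The libraries did not overlap for 5 members (Obp57c, Obp57b, Obp57a, Obp83cd and Obp83ef), each higher on HSD, where 15.8% of all rows were higher without overlap. The diets differed both in their content and in the number of days they were given, and these cannot be told apart. The count of 2 became 1 without HSD library B, HSD library C or HFD library B. Calls over all rows in those fits were 236, 253 and 259, against 364 in the main fit.

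Obp18a (FBgn0030985), on the X chromosome and 1279876 bases from its nearest family member, Obp19a, was abundant and showed no called difference. It had 223, 147 and 136 RPKM in HSD A, B and C, 197, 157 and 172 RPKM in HFD A, B and C, and 245, 194 and 202 RPKM in ND A, B and C. The diets overlapped. The fitted log2 difference was -0.37 ± 0.18 on HSD and -0.28 ± 0.18 on HFD (limma, Benjamini-Hochberg adjusted p = 0.312 and 0.462). Without HSD library A the HSD value was -0.59 and was called (limma adjusted p = 0.0437).

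Among the members between 0.5 and 2 RPKM, Obp73a (FBgn0036681), an isolated gene on chromosome 3L, was lower on both rich diets. It had 0.436, 0.742 and 0.525 RPKM in HSD A, B and C, 0.711, 0.522 and 0.379 RPKM in HFD A, B and C, and 1.48, 1.12 and 1.33 RPKM in ND A, B and C, from 23 to 84 reads per library. Every ND library was above every other library. The log2 fold change was -0.77 ± 0.17 on HSD (limma, Benjamini-Hochberg adjusted p = 0.0333) and -0.81 ± 0.17 on HFD (limma, adjusted p = 0.0438), understated by the pseudocount at this level. The HSD call held in 4 of the 9 fits that leave out 1 library and the HFD call in 1, and without ND library A the limma adjusted p was 0.133 in both. With library letter as a block in the fit, neither call passed (limma adjusted p = 0.0519 on HSD and 0.066 on HFD). Leaving out HSD library A, B or C gave 0.0791, 0.0697 and 0.102 on HSD, and leaving out ND library C gave 0.115 on HSD and 0.156 on HFD. The HFD call was also lost without HSD library B (0.0619), HSD library C (0.0664), HFD library A (0.0544), HFD library B (0.129), HFD library C (0.0636) or ND library B (0.0719). The annotated exons of Obp73a share 17.6% of their bases with Ogdh and a roo element on the same strand, and its values gave whole reads at 780 bases, where the annotated exons hold 905.

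Obp19d (FBgn0011280), expressed in antennal and taste organs of flies, and Obp56d (FBgn0034470) were set apart by a single ND library. Obp19d had 0.711, 0.848 and 1.35 RPKM in HSD A, B and C, 0.403, 0.753 and 0.397 RPKM in HFD A, B and C, and 1.70, 0.996 and 6.43 RPKM in ND A, B and C. HFD and ND did not overlap, and ND library C was far above the rest. In limma, the log2 fold change was -0.97 ± 0.48 on HSD and -1.50 ± 0.48 on HFD (limma, Benjamini-Hochberg adjusted p = 0.304 and 0.137), and without ND library C it was -0.33 on HSD and -0.85 on HFD (limma adjusted p = 0.628 and 0.21). Obp56d had 1.17, 0.613 and 1.32 RPKM in HSD A, B and C, 0.825, 1.14 and 1.41 RPKM in HFD A, B and C, and 0.927, 0.991 and 3.93 RPKM in ND A, B and C. Its diets overlapped, and its log2 fold change of -0.49 ± 0.41 on HSD and -0.40 ± 0.41 on HFD (limma adjusted p = 0.577 and 0.655) was above 0 on both without ND library C, at 0.04 and 0.14. Obp8a, at 0.532 RPKM on average, had overlapping libraries in every comparison, with log2 fold changes of -0.26 ± 0.23 on HSD and -0.35 ± 0.23 on HFD (limma adjusted p = 0.608 and 0.469).

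Of the members that were not tested, 20 had reads and 16 were at 0 in every library. The members with reads averaged 0.0029 to 0.492 RPKM, and the 19 of them whose reads could be rebuilt had 1 to 280 reads over the 9 libraries. For the members at 0, a count of 3 reads would have given 0.0202 to 0.126 RPKM. For exons not shared with another gene, levels below that were not detectable at this depth (counting error only). Obp50b and Obp50c, which gave the 0.0202, are annotated on the same exons, and Obp57d lies wholly within exons of Cpr57A. Reads there could not be told apart by gene. How such reads were counted is not stated, so the floor may not hold for these genes. On the other strand, CG7741 covers 100% of the exon bases of Obp47b, and an antisense RNA 84.4% of those of Obp56e. Obp22a was the only member under the filter with ND libraries apart from those of a rich diet, above both HSD and HFD, which overlapped each other. It had 0.0312, 0.108 and 0.0776 RPKM in HSD A, B and C, 0.109, 0.0861 and 0.124 RPKM in HFD A, B and C, and 0.133, 0.162 and 0.165 RPKM in ND A, B and C. Each of these values rests on 2 to 9 reads, and no test was run on it. Obp44a, a member made by glia in the fly brain, had the most reads of the 20 (280) and averaged 0.392 RPKM, and 19.1% of its exon bases overlap Pabp2 on the other strand.

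ND library C had the most reads of the untested members. Their reads summed to 46, 40 and 92 in HSD A, B and C, 22, 52 and 94 in HFD A, B and C, and 68, 60 and 343 in ND A, B and C. Of the 343 reads, 212 were of Obp19b, which had 2 reads in HFD library A and none in the remaining libraries. Obp49a, a member of taste organs that takes part in the suppression of sweet taste by bitter compounds, had 41 reads in ND library C and at most 2 elsewhere. ND library C was the highest of the 9 libraries for 16 of the 35 members with reads. The share over all rows was not counted, so this cannot be read as a trait of the Obp genes. Obp50e, Obp56c and Obp69a, for instance, had 2 reads there. ND library C also had the most rows above 0, at 12161, against 11625 to 12107 in the other libraries. Of the 6 eggshell genes, 5 were also highest in that library, with Vm26Aa at 460.1 RPKM there and at most 9.25 RPKM in the others. The CheA and CheB chemosensory genes are a list chosen after its values were seen. Its counts are therefore no separate evidence on ND library C. Of 20 genes, 6 were at 0 in every library and 9 of the other 14 were highest in ND library C. CheA75a was at 11.8 RPKM and CheA7a at 9.50 RPKM there, and at most 0.136 and 0.0440 RPKM in the other libraries. Whether ND library C held other tissue, and its part in the Obp values, was not tested. Without it, Obp83ef alone of the 4 HSD calls and Obp83ef and Obp57c alone of the 6 HFD calls passed, in a fit with 2 ND libraries. Rows called in all numbered 106 for HSD versus ND and 44 for HFD versus ND, against 276 and 160 in the main fit. Without ND library A instead, they numbered 128 and 100. On HSD, the members lost without ND library C had log2 fold changes of -1.31 (Obp99a), -1.07 (Obp83g) and -0.76 (Obp73a). The main fit gave -1.26, -1.06 and -0.77. On HFD they had -0.70 (Obp83cd), -0.81 (Obp57b), -1.44 (Obp83g) and -0.80 (Obp73a). The main fit gave -0.66, -0.91, -1.43 and -0.81 there.

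**Figure D4:**
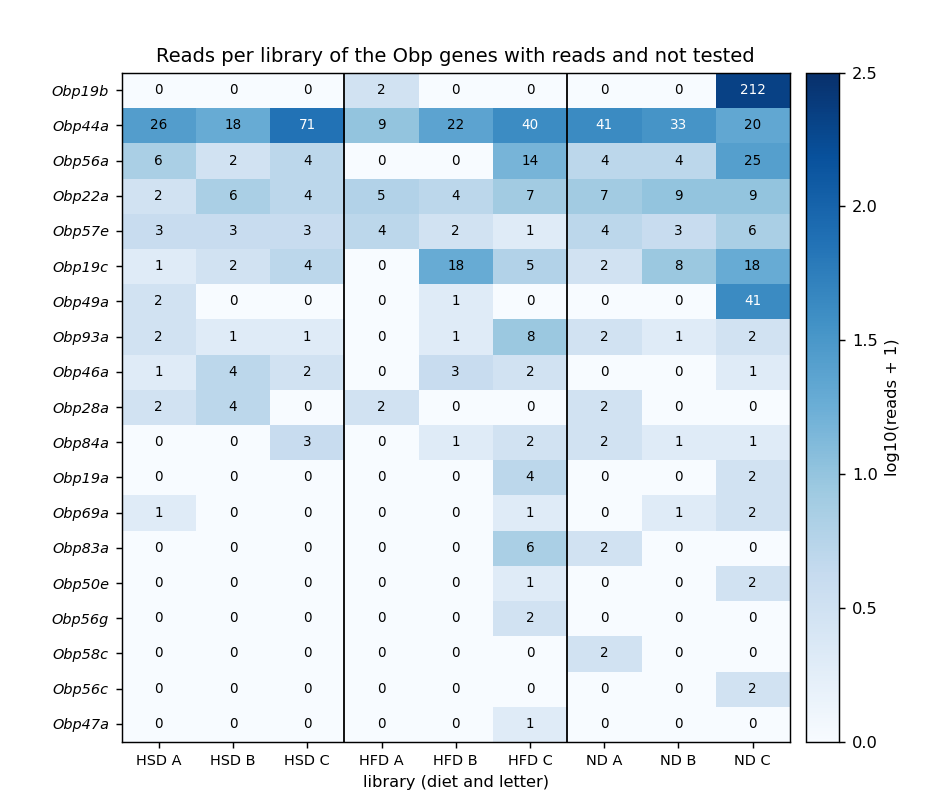
Reads per library of the 19 untested Obp genes whose reads could be rebuilt (rows, ordered by mean RPKM), with HSD, HFD and ND libraries from left to right and shade as log10(reads + 1). Most cells hold 0 to 9 reads, Obp44a has 9 to 71 in every library, and the cells of Obp19b (212) and Obp49a (41) in ND library C stand out.

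Of the 6 genes of a list enriched in the antenna, all but lush had 10 reads or fewer over the 9 libraries. Obp83b and Obp59a, the second of which is needed for humidity sensing, had no read in any library. Obp83a had 8 reads in all, Obp28a, which is abundant in the antenna and shapes odour responses there, had 10, and Obp19a had 6. The remaining family member of that list, lush, which binds the pheromone cVA, falls outside the symbol rule and had 1.30, 1.96 and 1.69 RPKM in HSD A, B and C, 1.31, 0.687 and 0.814 RPKM in HFD A, B and C, and 2.27, 2.21 and 2.19 RPKM in ND A, B and C. It was lowest on HFD and highest on ND, with HSD overlapping HFD. Its log2 fold change was -0.95 on HFD (limma, Benjamini-Hochberg adjusted p = 0.0265) and -0.35 on HSD (limma, adjusted p = 0.288). Of the seminal fluid members and the Obp56 genes, Obp51a, Obp56b, Obp56e, Obp56f, Obp56h and Obp56i had no read, and Obp56c and Obp56g had 2 each. Obp22a had 53 reads and Obp56a had 59, while Obp8a and Obp56d, which were tested, had 208 and 844.

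The members tested were unevenly spread over the genome. Within gaps of at most 30000 bases, 33 members formed 9 clusters and 18 stood alone. All members of 3 clusters were tested (the Obp57c, Obp83cd and Obp99 runs), whereas in the Obp50, Obp57e, Obp58 and Obp59, and Obp83a clusters none was. Chromosome arm 2R holds 29 members, of which 4 were tested, and 3R holds 12, of which 7 were. The X chromosome holds 6 members, 3 of them tested, 3L holds 2 with 1 tested, and the 2 on 2L were not tested.

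Other soluble carriers and chemosensory genes gave a mixed picture. In the Npc2 family of sterol-binding secreted proteins, 5 of 8 genes were tested and 0 were called on HSD or HFD. Npc2a had 161, 162 and 179.7 RPKM in HSD A, B and C, 179.9, 162 and 168 RPKM in HFD A, B and C, and 244, 220.3 and 207 RPKM in ND A, B and C. Its log2 fold changes of -0.42 on HSD and -0.40 on HFD passed on adjusted p (0.0273 and 0.0489 in limma) and not on fold. Of 4 takeout and lipocalin genes, 3 were tested, and GLaz, a lipocalin of the apolipoprotein D type, was called lower on HSD at -0.59 (limma, Benjamini-Hochberg adjusted p = 0.0267) and none was called on HFD. Of 6 related odorant-binding and chemosensory proteins outside the rule, 3 were tested (lush, EbpIII and Phk-3), with 0 called on HSD and lush alone on HFD. Of 11 receptors and membrane proteins, 2 were tested, and Snmp1, a CD36-type membrane protein that works with lush in pheromone detection, was called lower on HFD at -1.94 (limma, adjusted p = 0.00587). It had 30.2, 23.8 and 26.4 RPKM in HSD A, B and C, 5.54, 9.66 and 9.02 RPKM in HFD A, B and C, and 36.7, 22.2 and 38.5 RPKM in ND A, B and C.

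Most genes of the fat body list moved in the same direction as the Obp genes, and other lists were below 0 too. Of its 8 genes, all tested, 5 were called lower on HSD (Lsp2, Yp1, Yp2, Yp3 and bmm) and 4 on HFD (Lsp2, Yp1, Yp2 and Yp3), and 0 were called higher on either diet. Over all rows, 2.56% were called lower on HSD and 1.45% on HFD. Lsp2, a storage protein, had 9.78, 22.2 and 122 RPKM in HSD A, B and C, 3.76, 8.67 and 19.8 RPKM in HFD A, B and C, and 949, 327 and 347 RPKM in ND A, B and C. The fat body markers FASN1, apolpp and Plin1 were not called on either diet. Plin1 on HSD (0.22) and bmm on HFD (0.06) were the log2 fold changes of the list above 0. Median log2 fold changes on HSD and HFD were -0.22 and -0.36 in the hemocyte list. They were -0.28 and 0.05 in the pericardial nephrocyte list, and 0.51 and 0.09 in the oenocyte list. In these lists 0 genes were called against ND. The ovary and eggshell list had the lowest medians, -3.28 on HSD and -4.03 on HFD. Of its genes, 0 were called on HSD, and Cp15 was called lower on HFD. The part of RNA from fat body or other cell types in the Obp differences was not tested.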

How the data were processed

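RNA from hearts of w1118 females on HSD, HFD or ND was sequenced in 3 libraries per diet, grouped as labelled. The authors trimmed reads with Sickle, mapped them on dm3 (subread-align), obtained read counts per gene from featureCounts (both of Subread 1.6.1) and brought identifiers up to dm6. The library kit was stranded. The strand setting of the counting, the gene lengths and the step from counts to RPKM are not given in the sources used here. The deposited table holds RPKM in 9 columns, with a decimal comma in 28.4% of cells, which were read as points; its unit is therefore recorded as other, a deposited RPKM scale without rescaling between libraries.

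Labels had slipped against values in 9 stretches (2316 rows), which were realigned. In these, values came to whole reads (within 0.05) at the exon length of the gene in 95.7% of rows after realignment and in 18.8% as listed. For the 6 Obp genes in such stretches (Obp99b, Obp83g, Obp28a, Obp93a, Obp58c and Obp84a), all 6 gave whole reads after realignment and 2 as listed. Reads were rebuilt from RPKM, exon length (Ensembl release 115, BDGP6) and library total.

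RPKM was rescaled by the median of ratios, rows with a mean deposited RPKM under 0.5 were left out, and log2(RPKM + 0.5) was fitted over all 9 libraries with limma 3.58.1 (R 4.3.3, trend in the variance prior, 6 residual degrees of freedom), with Benjamini-Hochberg adjustment over 8365 rows. The pseudocount understates changes of low genes. The exact two-sided permutation test of 3 against 3 libraries cannot go below p = 0.1 and so made no calls. Because the table is RPKM, limma took the place of the count tests that the study names. The fit was tested on simulated data.

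Values in every library are given for members called in any comparison or among the 12 highest in mean RPKM, other members are named where diets do not overlap, and the rest are given by range and counts; any other gene named was picked with its values in view. Members and lists were chosen with earlier results of these data known. Alternatives were the scaling, pseudocount, filter, variance prior, samples fitted, replicate block, call rule, limma-voom on rebuilt reads, labels as listed and leaving out each library. Without ND library C was looked at more closely after seeing the data.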

Additional observations from a re-analysis of the deposited data

How the results depend on the processing

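With single libraries left out, the counts of Obp genes called were 1 to 4 for HSD versus ND (main count 4), 2 to 7 for HFD versus ND (main count 6) and 1 to 2 for HSD versus HFD (main count 2). The HSD count was 1 without HSD library B, ND library A or ND library C and 2 without HSD library C. Calls over all rows in those fits were 107, 128, 106 and 173, against 276 in the main fit. The HFD count was 2 without HFD library B or ND library C and 3 without ND library A. Calls over all rows there were 61, 44 and 100, against 160 in the main fit. With no filter on low values the HFD count was 3, over a larger set of rows adjusted together, of which 81 were called. With no fold change threshold the HSD versus HFD count was 4, and 788 of all rows were called, against 364 in the main fit. All other alternatives gave 3 to 4, 4 to 8 and 2 Obp genes.

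Against ND, direction turned only for members that were not called: on HSD, Obp99b gave 0.18 with labels as listed and -0.54 to 0.17 over the fits without 1 library, Obp83cd -0.21 to 0.0051, Obp57a -0.11 to 0.058, Obp56d -0.78 to 0.039 and Obp99d -0.33 to 0.051. On HFD, Obp56d gave -0.68 to 0.14 and Obp99d -0.35 to 0.0055. The causes were not tested. RPKM as deposited put the median of all rows at 0.12 on HFD, against 0.02 after scaling, and split the HFD calls over all rows into 96 lower and 87 higher, against 121 lower and 39 higher after scaling.

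Letters A, B and C are shared between diets. Same-letter libraries deviated together (r over 0.1) in 4 of 9 pairs, with r from -0.25 to 0.27. Pairs with other letters had r from -0.32 to 0.36. These ranges overlap and cannot tell whether a letter marks a shared day. The main fit did not take the letters as pairs, and the replicate block was an alternative. With the replicate block the Obp counts were 3 on HSD, 5 on HFD and 2 for HSD versus HFD, losing Obp73a on both diets (limma, adjusted p = 0.0519 on HSD and 0.066 on HFD).

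Depth limits the low members: the tested Obp genes below 2 RPKM rest on 10 to 531 reads per library.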
